A study of Mus musculus with 8 samples.

Results

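The insulin-like growth factor (IGF) system was followed here through 10 genes of the deposited table, taken by symbol: the ligands Igf1 and Igf2, the receptors Igf1r, Igf2r and Insr, the receptor substrates Irs1 and Irs2, and the binding proteins Igfbp4, Igfbp5 and Igfbp7. All 10 are among the 14012 genes of the table, and all 10 were tested, since no further filter on low counts was applied. RNA was taken from the quadriceps femoris (QF), a large thigh muscle, of 4 mice labelled as skeletal muscle specific Grpel1 knockouts and of 4 Grpel1 flox/flox control mice, with 1 library per mouse. In the knockouts a tamoxifen-inducible Cre recombinase (HSA-Cre-ERT2), made under the human skeletal muscle α-actin promoter, deletes the floxed Grpel1 gene, which encodes a mitochondrial co-chaperone, in muscle fibres and not in the other cells of the muscle. Both groups carry the floxed allele. Tamoxifen was given to juvenile mice in the study. Whether the sequenced controls also received it, or carry the Cre transgene, is not stated. Effects of tamoxifen, of Cre and of the deletion thus cannot be told apart here. The study used male mice and made the floxed line from stem cells injected into C57BL/6NCrl blastocysts, and all mice were young, but the labels give no age for the single sequenced mice.

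IGF1 and IGF2 are secreted peptides that activate the tyrosine kinase receptor IGF1R, and at lower affinity the insulin receptor. The active receptors phosphorylate the docking proteins IRS1 and IRS2, which recruit phosphatidylinositol 3-kinase (PI3K) and thereby switch on AKT, a kinase that favours protein synthesis and holds back the FoxO transcription factors. IGF2R has no kinase and carries IGF2 to the lysosome for breakdown, and the binding proteins hold the ligands in blood and matrix and set how much reaches a receptor. In muscle the system is known for its part in fibre growth, in the response to load and in regeneration, where Igf2 is a gene of differentiating myoblasts.

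The targeted gene did not separate the groups. Grpel1 stood between 64.1 and 71.2 normalised counts (CPM, defined below) in the control libraries and between 59.9 and 71.9 CPM in the libraries labelled knockout (log2 fold change -0.07, standard error (SE) 0.08, adjusted p = 0.49 by edgeR's quasi-likelihood test). The table holds counts of whole genes, which cannot show the loss of single exons, so "labelled knockout" is used below and every direction rests on the labels. CPM are counts scaled by the library total and by a TMM factor, edgeR's correction for composition. Library totals lay between 16017565 and 20361144 counts, and a count of 0 would have allowed up to 3 counts, or 0.119 to 0.242 CPM (counting error only). Replicates of a group differed by 16.8 to 42.5 times the sampling variance (chi-square per degree of freedom), so none was a repeat of another. At an adjusted p under 0.01 by edgeR's test with Benjamini-Hochberg adjustment over all genes, 6265 of 14012 genes (44.7%) were called, with 3303 (23.6%) up and 2962 (21.1%) down in the libraries labelled knockout. When library totals alone were used, the log2 fold change of the median gene moved from 0.07 to 0.73 and the calls became 8498 higher and 873 lower.

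Of the 10 IGF-system genes 8 were called, 4 of them higher (Igf2, Igf1r, Igf2r and Insr) and 4 lower (Igf1, Irs1, Igfbp5 and Igfbp7) in the libraries labelled knockout, beside the 44.7% of all genes called. Irs2 and Igfbp4 were not called. In 7 of the 10 the groups stayed apart in every library, against 53.4% of all genes. The median log2 fold change of the 10 genes was 0.22, and that of all genes 0.07. Their median absolute log2 fold change was 0.80, against 0.47 over all genes. The lowest mean of any member in either group, that of Igf1 in the libraries labelled knockout, was still 14.3 CPM, far above the level that 3 counts are worth.

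**Figure D1:**
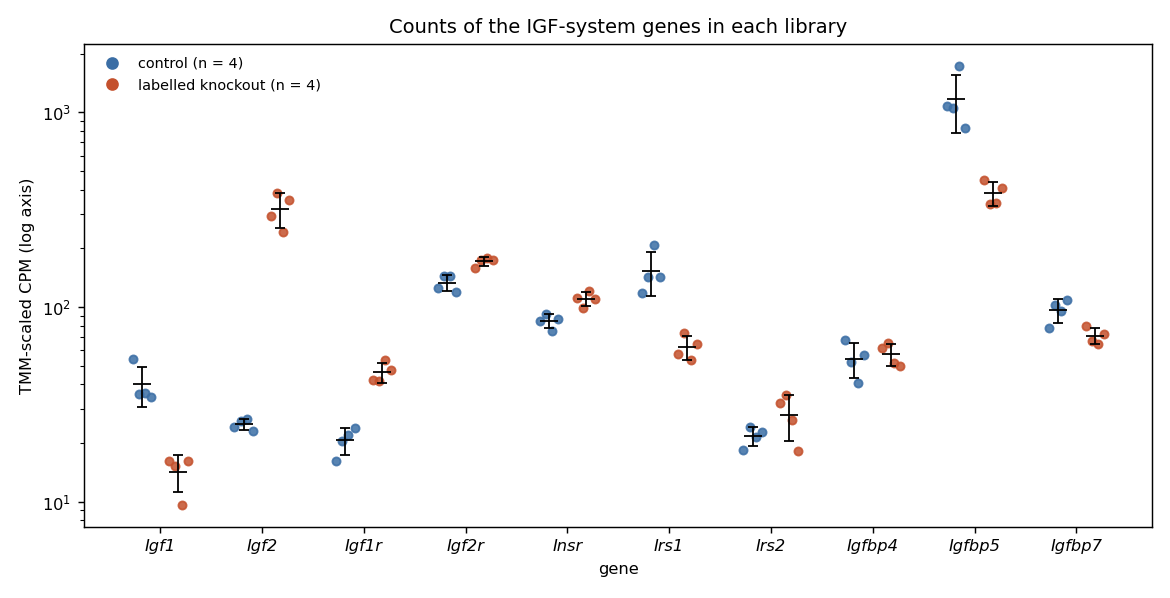
TMM-scaled CPM (log axis) of each of the 10 genes in the 4 control and the 4 labelled knockout libraries, where each point is 1 library and the bars are the mean ± SD. The groups of Igf2 lie farthest apart (22.9 to 26.7 against 243 to 387 CPM), and those of Irs2, Igfbp4 and Igfbp7 overlap.

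The marker RNA of several cell types also moved with the groups, and the part of these cells in the changes of the IGF genes was not tested. The tissue label was matched by the summed CPM of 10 fibre markers such as Acta1 and Ckm, at 248500 to 326800 CPM in the controls, but these sums were 86950 to 124300 CPM in the libraries labelled knockout, with 8 of the 10 markers lower and 1 (Myh1) higher. All 5 measured markers of regenerating or embryonic fibres were higher, among them Myh3 and Myh8 of developmental myosins, and their sum went from 17.2 to 30.96 CPM in the controls to 859 to 1741 CPM. Satellite cell markers summed to 64.9 to 75.9 and 84.1 to 115 CPM (3 of 8 higher, 2 lower). Endothelial markers summed to 323 to 460 and 226 to 257 CPM (6 of 7 lower), fibroblast markers to 2290 to 3074 and 1224 to 1453 CPM (5 of 8 lower), and those of pericytes and smooth muscle to 724 to 996 and 572 to 624 CPM (3 of 7 lower). The sums overlapped between the groups for macrophages (78.6 to 201 and 163 to 300 CPM, 1 of 8 markers, Cd68, higher), adipocytes (249 to 1497 and 712 to 2591 CPM, 0 of 7 called) and Schwann cells and nerve (73.9 to 193 and 101 to 158 CPM, 0 of 6 called). The 249 CPM of adipocyte markers were those of control replicate 3. None of the listed markers was at or below 3 counts in every library of a group. In bulk RNA fewer cells of a type and less RNA per cell cannot be told apart.

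Among the ligands Igf2 rose and Igf1 fell. Igf2, the growth factor that dominates in fetal life and is imprinted, had 24.2, 25.9, 26.7 and 22.9 CPM in control replicates 1 to 4 and 292, 387, 243 and 357 CPM in knockout replicates 1 to 4. Every library labelled knockout was far above every control library, and the controls lay close together. The mean was 319 ± 64.5 against 24.95 ± 1.69 CPM (SD, n = 4 each), 12.8-fold higher, with a log2 fold change of 3.68 (SE 0.15, adjusted p = 1e-07 by edgeR's quasi-likelihood test). This was the largest change of the 10 genes, at rank 131 from the highest of all 14012. Over the fits that left out 1 library it was 3.56 to 3.76. The regenerating or embryonic fibre markers moved the same way, and their sum did not overlap between the groups either.

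Igf1, the ligand made in liver and locally in muscle under growth hormone, had 53.9, 35.6, 36.3 and 34.4 CPM in the control libraries and 16.2, 15.2, 9.62 and 16.1 CPM in the libraries labelled knockout. Control replicate 1 stood above the other controls and knockout replicate 3 below the others of its group, and the groups did not overlap. The mean fell 2.81-fold, from 40.0 ± 9.27 to 14.3 ± 3.13 CPM (SD, n = 4 each), with a log2 fold change of -1.49 (SE 0.19, adjusted p = 1e-04 by edgeR's quasi-likelihood test). Leaving out each library in turn gave -1.57 to -1.31. Macrophages and fibroblasts are also known sources of Igf1. With TMM factors the summed macrophage markers overlapped between the groups, with a median log2 fold change of 0.92 over the 8 markers. The summed fibroblast markers were lower under the same factors, with a median of -0.65.

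Igf2 lies on chromosome 7 (142650768 to 142666816, minus strand, GRCm38) and Igf1 on chromosome 10 (87858265 to 87937047, plus strand). RefSeq places 4 starts in Igf2, and a count of the whole gene cannot tell which was used. The 250 bases before a RefSeq start were read for 9 of the 10 genes in 12 windows (GRCm38.p6), 1 window for each gene except Igf2. The window of Igf1 lies inside the span of the gene, before a start downstream of its 5′ end in the table (87858265). The bases before that 5′ end were not read. They were searched on both strands for GGGCGG (the GC box of SP1), CAGCTG (an E-box letter pattern that myogenic factors such as MYOD can bind), GTAAACA (a forkhead pattern), TGATGNAA (a composite ATF4 pattern) and TATAAA (the TATA box). The windows printed here are those of the ligands, of the receptor that rose most and of the members that fell most besides Igf1, with the pattern letters in capitals and each read 5′ to 3′ along its gene. For Igf2 the 2 windows with a GC box are shown.
Igf2, chr7:142658805-142659054, minus strand: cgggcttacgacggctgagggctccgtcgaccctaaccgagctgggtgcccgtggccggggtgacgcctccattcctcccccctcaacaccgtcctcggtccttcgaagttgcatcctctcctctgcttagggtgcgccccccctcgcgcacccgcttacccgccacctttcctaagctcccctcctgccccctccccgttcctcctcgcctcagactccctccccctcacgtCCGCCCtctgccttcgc
Igf2, chr7:142657497-142657746, minus strand: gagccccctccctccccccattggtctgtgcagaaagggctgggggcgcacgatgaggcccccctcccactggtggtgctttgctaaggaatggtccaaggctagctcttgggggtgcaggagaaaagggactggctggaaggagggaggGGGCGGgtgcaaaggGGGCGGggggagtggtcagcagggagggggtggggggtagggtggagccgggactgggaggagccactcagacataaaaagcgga
Igf1, chr10:87860861-87861110, plus strand: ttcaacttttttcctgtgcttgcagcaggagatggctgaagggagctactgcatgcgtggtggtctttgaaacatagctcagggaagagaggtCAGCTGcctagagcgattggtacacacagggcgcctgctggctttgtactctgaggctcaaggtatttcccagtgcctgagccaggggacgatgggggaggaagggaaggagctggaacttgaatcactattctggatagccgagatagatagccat
Igf1r, chr7:67952007-67952256, plus strand: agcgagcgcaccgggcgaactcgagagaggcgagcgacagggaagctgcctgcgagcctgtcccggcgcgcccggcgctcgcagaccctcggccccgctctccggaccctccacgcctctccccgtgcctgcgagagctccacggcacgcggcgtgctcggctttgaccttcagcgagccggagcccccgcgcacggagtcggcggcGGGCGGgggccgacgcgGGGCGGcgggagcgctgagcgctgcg
Irs1, chr1:82291440-82291689, minus strand: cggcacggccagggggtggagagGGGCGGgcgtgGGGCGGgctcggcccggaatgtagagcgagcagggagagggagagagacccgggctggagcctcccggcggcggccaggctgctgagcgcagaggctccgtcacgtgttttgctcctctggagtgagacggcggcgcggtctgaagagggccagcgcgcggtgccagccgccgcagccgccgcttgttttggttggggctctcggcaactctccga
Igfbp5, chr1:72874866-72875115, minus strand: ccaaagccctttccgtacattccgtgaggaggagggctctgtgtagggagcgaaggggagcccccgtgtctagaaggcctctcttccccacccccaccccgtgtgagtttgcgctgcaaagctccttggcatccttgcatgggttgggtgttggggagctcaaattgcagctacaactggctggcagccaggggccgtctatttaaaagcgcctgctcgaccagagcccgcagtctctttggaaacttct

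The GC box stood in 7 of the 12 windows (those of Igf1r, Igf2r, Irs1, Irs2, Igfbp7 and 2 of Igf2), while 32.7% of all 32851 windows of this length hold it. The E-box pattern was in the window of Igf1 alone among the members (13.0% of all windows), and the TATA box in that of Igfbp4 alone (12.4%). The forkhead and ATF4 patterns, in 3.17% and 3.45% of all windows, were in 0 of the 12. The share of G and C ran from 47.6% in an Igf2 window without a GC box to 77.6% in that of Igf1r, with a median of 52.4% over all windows. The genes that rose and those that fell were not parted by these letters: Igf1r, which rose, and Irs1, which fell, each have 2 GC boxes and G and C shares of 77.6% and 72.4%. Igf1 and Igfbp5, which both fell, have 0 GC boxes in the windows read and shares of 52.8% and 58.8%.

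All 3 receptors were called higher. Igf1r (chromosome 7, 67952257 to 68233667, plus strand), which encodes the signalling receptor of both ligands, had 16.2, 20.6, 22.0 and 23.8 CPM in the control libraries and 42.2, 41.7, 53.5 and 47.7 CPM in the libraries labelled knockout. The groups were well apart. The mean rose 2.24-fold, from 20.6 ± 3.28 to 46.3 ± 5.51 CPM (SD, n = 4 each), with a log2 fold change of 1.16 (SE 0.13, adjusted p = 2.9e-05 by edgeR's quasi-likelihood test), and was 1.05 to 1.24 over the fits that left out 1 library.

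The changes of the other 2 receptors were smaller. Igf2r (chromosome 17, 12682406 to 12769706, minus strand), which encodes the receptor that clears IGF2 and also sorts lysosomal enzymes by their mannose 6-phosphate, had 125, 145, 144 and 120 CPM in the control libraries and 158, 175, 179 and 175 CPM in the libraries labelled knockout. Insr (chromosome 8, 3150922 to 3279617, minus strand), which encodes the insulin receptor, had 84.3, 91.7, 75.2 and 87.1 CPM and 111, 98.8, 121 and 110 CPM. In both genes every library labelled knockout was above every control, with a narrow gap. The log2 fold change was 0.36 (SE 0.08, adjusted p = 0.0038) for Igf2r and 0.38 (SE 0.08, adjusted p = 0.0032) for Insr by edgeR's test. These calls depended on single libraries, and that of Insr also on the adipocyte markers, with whose mean as a covariate the log2 difference was 0.34 and not called (edgeR adjusted p = 0.014). The adjusted p of Igf2r rose to between 0.012 and 0.018 by edgeR without control replicate 1 or knockout replicate 2, 3 or 4, and that of Insr to between 0.017 and 0.019 without knockout replicate 1, 3 or 4, while the log2 fold changes kept their sign, at 0.31 to 0.40 and 0.30 to 0.42.

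Airn, the imprinted antisense RNA across Igf2r, was at 4.22 to 6.62 CPM in the control libraries and 3.84 to 5.40 CPM in the libraries labelled knockout and was not called (edgeR adjusted p = 0.32). In GENCODE M21 a read-through gene on the same strand, Gm49394, covers 62.8% of the exon bases of Igf2. In the span of Igf2 the antisense transcript Igf2os had 2 to 3 counts in each control library and 22 to 27 counts in each library labelled knockout. By the same annotation Igf2os covers 1.71% of the exon bases of Igf2, and no exon bases shared by Airn and Igf2r were found. Whether the counting used the strand is not given in the sources used here. Reads from bases that a gene shares with its antisense partner thus cannot be told apart.

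The receptor substrates moved unequally. Irs1 (chromosome 1, 82233105 to 82291439, minus strand), a docking protein of both the insulin and the IGF1 receptor, had 118, 142, 207 and 142 CPM in the control libraries and 57.2, 73.2, 53.4 and 64.8 CPM in the libraries labelled knockout. Control replicate 3 was the highest and the groups did not overlap. The mean fell 2.45-fold, from 153 ± 38.3 to 62.2 ± 8.74 CPM (SD, n = 4 each), with a log2 fold change of -1.30 (SE 0.17, adjusted p = 1e-04 by edgeR's quasi-likelihood test), and -1.11 without control replicate 3 at the low end of the range over left-out libraries.

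Irs2 (chromosome 8, 10986961 to 11008430, minus strand), the other substrate, which FoxO factors are known to raise, had 18.4, 24.1, 21.5 and 22.8 CPM in the control libraries and 32.1, 35.3, 26.3 and 18.1 CPM in the libraries labelled knockout. Knockout replicate 4 was below all controls and the other 3 above them. The log2 fold change of 0.36 (SE 0.18) was not past the threshold (adjusted p = 0.12 by edgeR's quasi-likelihood test). Without knockout replicate 4 it was 0.50 and called (edgeR adjusted p = 0.0081), and over all fits run the adjusted p ranged from 9.8e-04 to 0.34. In the GENCODE M21 annotation of GRCm38, 30.9% of the exon bases of Irs1 are also covered by Gm9747 on the other strand, and 2.56% of those of Irs2 by 9530052E02Rik.

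Among the binding proteins Igfbp5 fell most. Igfbp5 (chromosome 1, 72858065 to 72874865, minus strand), the binding protein best known from muscle and bone matrix, had 1075, 1050, 1732 and 835 CPM in the control libraries and 448, 340, 343 and 408 CPM in the libraries labelled knockout. Control replicate 3, the library with the lowest adipocyte markers, was far above the other controls, and every library labelled knockout was below all of them. The mean fell 3.05-fold, from 1173 ± 388 to 385 ± 52.8 CPM (SD, n = 4 each), with a log2 fold change of -1.61 (SE 0.21, adjusted p = 1e-04 by edgeR's quasi-likelihood test). It was -1.36 without control replicate 3 and -1.32 with the mean of the adipocyte markers as a covariate, both past the threshold by edgeR, where the adjusted p reached at most 0.0010 over all fits run.

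Igfbp7 (chromosome 5, 77349240 to 77408045, minus strand), a low-affinity binder of IGFs made by endothelium among other cells, had 77.8, 103, 95.1 and 109 CPM in the control libraries and 79.4, 66.9, 64.7 and 72.8 CPM in the libraries labelled knockout. Knockout replicate 1 lay just above control replicate 1, so that the groups overlapped. The log2 fold change was -0.44 (SE 0.11, adjusted p = 0.0061 by edgeR's quasi-likelihood test). The call was lost, with edgeR adjusted p between 0.013 and 0.020 and log2 fold changes between -0.47 and -0.37, when control replicate 2, 3 or 4 was left out, and likewise for knockout replicate 2, 3 or 4, and it was also lost with the adipocyte covariate (-0.47, edgeR adjusted p = 0.012). With library totals alone the direction turned (0.22). With TMM factors the 7 endothelial markers had a median log2 fold change of -0.68. Library totals alone would raise that value too, as they moved the median of all genes from 0.07 to 0.73. Polr2b on the other strand covers 7.03% of the exon bases of Igfbp7 and was not called (edgeR adjusted p = 0.17).

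Igfbp4 (chromosome 11, 99041260 to 99052646, plus strand), a binding protein that withholds IGF1 until the protease PAPP-A cuts it, had 67.4, 52.0, 40.6 and 56.5 CPM in the control libraries and 61.8, 65.0, 51.8 and 49.6 CPM in the libraries labelled knockout. The groups overlapped throughout. The log2 fold change was 0.08 (SE 0.15, adjusted p = 0.68 by edgeR's quasi-likelihood test), and without control replicate 3 (-0.039) or knockout replicate 2 (-0.0089) it was below 0.

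**Figure D2:**
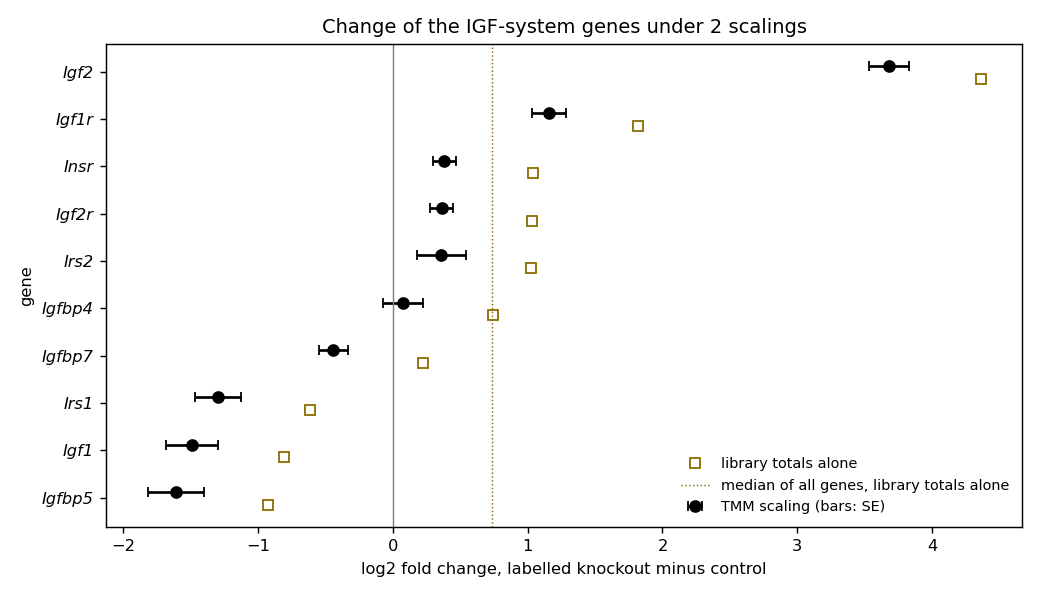
Log2 fold change (labelled knockout minus control, 4 libraries each) of the 10 genes with TMM factors (filled points, bars are the SE) and with library totals alone (open squares), where the dotted line is the median of all genes under the latter, 0.73. The order of the genes is the same under both, but with library totals alone every gene shifts up by 0.66 to 0.68 and Igfbp7 turns from -0.44 to 0.22.

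The scaling set the zero of these changes. With library totals alone the log2 fold changes were 4.36 for Igf2, 1.82 for Igf1r, 1.03 for Igf2r, 1.04 for Insr and 1.03 for Irs2, and they were -0.81 for Igf1, -0.61 for Irs1 and -0.92 for Igfbp5. Measured from that scaling’s own median over all genes, Igf1 was at -1.54, Irs1 at -1.35, Igfbp5 at -1.66 and Igfbp7 at -0.51, and Igf2 at 3.63.

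Levels of different genes were compared per length, as CPM per kilobase of exon (FPKM, calculated here from the counts and the deposited exon widths), as a description with no test. In the controls Igfbp5 had the highest level (200.4 ± 66.3 FPKM, SD, n = 4), above Igfbp7 (79.3 ± 11.1) and Igfbp4 (26.2 ± 5.36). Irs1 (16.7 ± 4.18) and Igf2r (14.9 ± 1.45) came next and then Insr (9.04 ± 0.746). Igf2 (5.51 ± 0.373), Irs2 (5.41 ± 0.603) and Igf1 (4.91 ± 1.14) followed, and Igf1r (1.72 ± 0.273) was the lowest. Neighbours in this order whose libraries overlapped were Igfbp4 and Irs1, Irs1 and Igf2r, Igf2 and Irs2, and Irs2 and Igf1. The other neighbours did not overlap.

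In the libraries labelled knockout the order began with Igf2 (70.5 ± 14.3 FPKM, SD, n = 4), Igfbp5 (65.7 ± 9.03) and Igfbp7 (58.5 ± 5.44), with overlap between the first pair of neighbours and between the next. Igfbp4 (27.6 ± 3.64), Igf2r (19.2 ± 1.06) and Insr (11.8 ± 0.971) followed without overlap. Irs2 (6.96 ± 1.87) and Irs1 (6.78 ± 0.954) overlapped, and Igf1r (3.86 ± 0.460) and Igf1 (1.75 ± 0.384) were the lowest. Igf2 thus went from the seventh to the highest mean of the 10, and Igf1 from the ninth to the lowest. Exon width is a sum over all transcripts, and where one short transcript dominates, the level per length is too low.

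**Figure D3:**
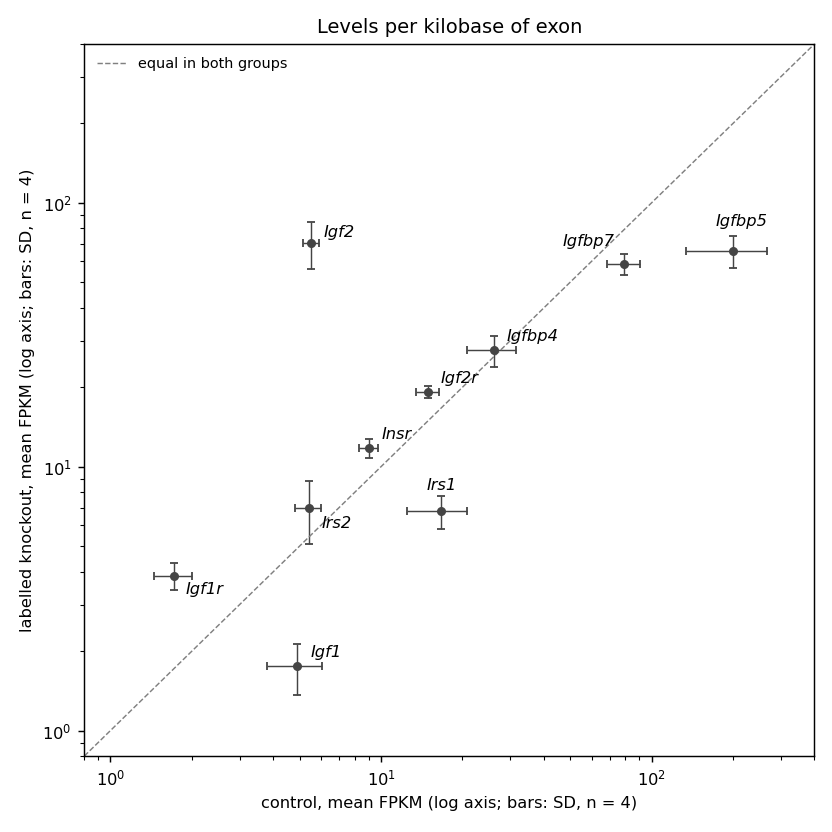
Mean FPKM of each gene in the control (x axis) and the labelled knockout libraries (y axis), both on log axes, with bars for the SD of 4 libraries and a dashed line where both are equal. Igf2 lies far above the line (5.51 against 70.5 FPKM), Igf1, Irs1 and Igfbp5 lie below it, and Igfbp4 lies close to it (26.2 against 27.6 FPKM).

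A pair of sums over the same values, chosen after the levels were seen, describe the shift among the ligands and the binding proteins. Igf2 made up 44.7% to 57.0% of the summed FPKM of both ligands in the control libraries and 97.0% to 97.9% in the libraries labelled knockout, and the sum itself was 10.4 ± 1.12 and 72.3 ± 14.5 FPKM (SD, n = 4 each). Igfbp5 made up 47.3% to 67.7% of the summed FPKM of Igfbp2 to Igfbp7 in the control libraries and 33.3% to 39.0% in the libraries labelled knockout, and that sum was 345 ± 62.5 and 179 ± 13.3 FPKM (SD, n = 4 each). In all 4 measures the groups did not overlap. The shares do not depend on the scaling of libraries, but the sums rest on the TMM factors. Without these factors the binding protein sums of the groups would meet at their ends.

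Ratios of 2 genes within a library need no scaling between libraries. For 6 such ratios of counts the groups were compared by an exact permutation test over the 70 assignments of 4 against 4, two-sided, where 0.0286 is the smallest p possible, with Benjamini-Hochberg adjustment over the 6. The ratio of Igf2 to Igf1 counts was 0.450, 0.729, 0.736 and 0.667 in the control libraries and 18.04, 25.5, 25.2 and 22.1 in the libraries labelled knockout. The groups were far apart, with a 35.6-fold difference (log2 5.15, exact permutation p = 0.0286, adjusted p = 0.0343). The value of such a count ratio depends on exon length, which cancels in the difference between groups: per length, Igf2 was already above Igf1 in control replicates 2 to 4, at 54.5% to 57.0% of the ligand sum, and below it in control replicate 1, at 44.7%.

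Against Igf1r the other receptors lost ground, although all 3 rose. The ratio of Insr to Igf1r counts went from 3.41 to 5.22 in the controls to 2.26 to 2.63 in the libraries labelled knockout, a log2 difference of -0.79. That of Igf2r to Igf1r went from 5.02 to 7.74 to 3.34 to 4.18, a log2 difference of -0.80. The ratio of Irs2 to Irs1 rose from 0.104 to 0.169 to 0.280 to 0.561, by 1.60 on the log2 scale, and that of Igfbp5 to Igfbp7 fell from 7.66 to 18.2 to 5.08 to 5.65, by 1.13. These 4 ratios did not overlap between the groups (exact permutation p = 0.0286, adjusted p = 0.0343 each). The ratio of Igfbp4 to Igfbp7 overlapped (0.427 to 0.866 and 0.681 to 0.971, log2 difference 0.52, exact permutation p = 0.114, adjusted p = 0.114). Without control replicate 1 the latter was 0.73 with an adjusted exact permutation p of 0.0286, and over left-out libraries it ranged up to 0.20. The Irs2 to Irs1 ratio kept its sign without control replicate 3 (1.44, adjusted exact permutation p = 0.0686). With any 1 library labelled knockout left out, the adjusted exact permutation p of the 5 ratios was between 0.0571 and 0.0686, in a design of 3 against 4.

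**Figure D4:**
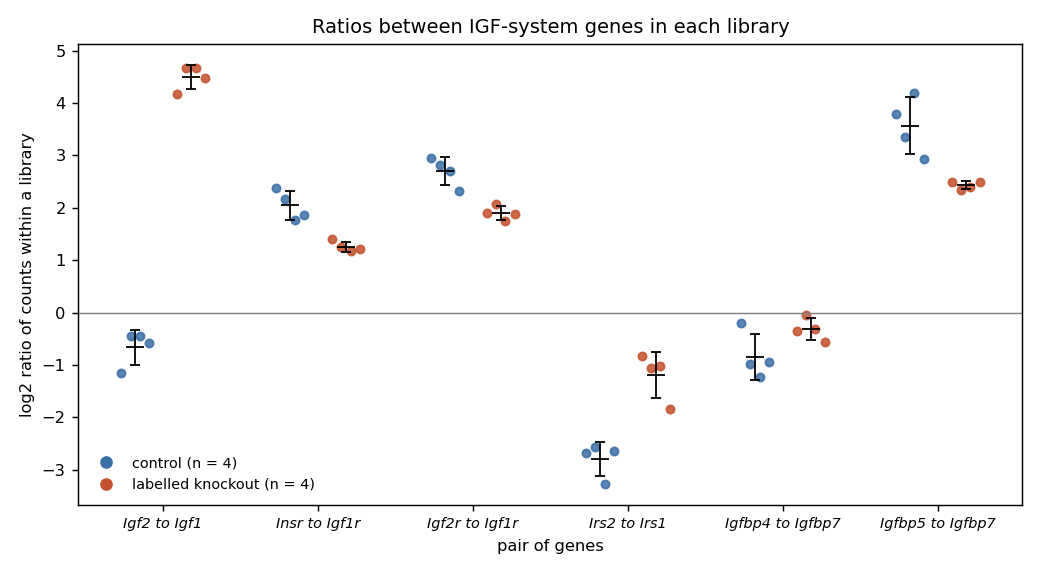
Log2 ratio of the counts of 2 genes in the same library for 6 pairs, with 1 point per library and bars for the mean ± SD of 4 libraries. The groups of the ratio of Igf2 to Igf1 lie farthest apart (log2 difference 5.15), and that of Igfbp4 to Igfbp7 is the one whose groups overlap.

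The other binding and processing genes of the list numbered 9, of which 2 rose, 3 fell and 4 were not called. Their median log2 fold change was 0.08. Stc2, whose product blocks PAPP-A, was at 0.716 to 1.62 CPM in the control libraries and 6.26 to 8.94 CPM in the libraries labelled knockout (log2 fold change 2.63, edgeR adjusted p = 6.2e-06). Igfbp2, a binding protein abundant in fetal life, named after its values were seen, was higher too but near the limit of detection in the controls (means of 0.157 and 1.91 CPM). Htra1, a secreted protease that cuts binding proteins, was at 43.9 to 68.2 and 12.3 to 14.4 CPM (log2 fold change -2.01, edgeR adjusted p = 1.1e-06). Igfbp6, which prefers IGF2, was at 35.1 to 47.6 and 17.9 to 22.0 CPM (-1.06, edgeR adjusted p = 1.4e-05), and Igfals, the acid-labile subunit that stabilises the complex in blood, was at 5.23 to 7.51 and 1.94 to 4.09 CPM (-1.08, edgeR adjusted p = 0.0032). Igfbp3, the main carrier in blood, was not called (12.2 to 26.6 and 22.4 to 32.1 CPM, 0.65, edgeR adjusted p = 0.026), but was without control replicate 4 (0.94, edgeR adjusted p = 4.7e-04). Igfbp1 and Igfbpl1 were not found by symbol among the 14012 genes of the table.

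Of 11 other genes of ligand control and of the adaptors, 4 rose, 5 fell and 2 were not called, at a median log2 fold change of -0.25. H19, the imprinted non-coding neighbour that shares enhancers with Igf2, was at 538 to 783 CPM in the control libraries and 2805 to 4196 CPM in the libraries labelled knockout (log2 fold change 2.25, SE 0.17, edgeR adjusted p = 2.6e-06), so that both neighbours rose. Igf2bp2, an RNA-binding protein of Igf2 mRNA, was at 2.14 to 5.83 and 7.47 to 12.2 CPM (1.11, edgeR adjusted p = 0.0059), with the adjusted p at 0.017 to 0.018 without control replicate 3 or knockout replicate 2 or 4. Of the adaptors that link receptors to RAS and PI3K, Shc1 (0.92) and Gab2 (0.46) rose. Sos2, an exchange factor that activates RAS, fell from 97.7 to 115 CPM to 38.9 to 44.4 CPM (-1.41), and its paralogue Sos1 by less (-0.44). Gab1 (-0.61), Ptpn11 (-0.55), a phosphatase that passes on the signal, and Grb2 (-0.25) fell, but with library totals alone Gab1, Ptpn11, Sos1 and Grb2 had positive values (0.054, 0.11, 0.23 and 0.42). The call of Grb2 was lost when control replicate 1, 3 or 4 was left out, and when knockout replicate 1 or 4 was (edgeR adjusted p up to 0.018, log2 fold change from -0.27 to -0.23).

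The brakes on the receptors split evenly, 6 of 20 being higher, 6 lower and 8 not called, at a median log2 fold change of -0.14. Trib3, a pseudokinase that binds AKT and a target of the ATF4 stress response, went from 0.851 to 1.95 CPM to 140 to 163 CPM (log2 fold change 6.98, SE 0.20, edgeR adjusted p = 2.9e-08). Grb14, which blocks the kinase of the insulin receptor, fell from 19.7 to 24.9 CPM to 4.08 to 5.84 CPM (-2.10, edgeR adjusted p = 8.5e-07), and Sh2b2, an adaptor of the insulin receptor, rose from 3.94 to 7.25 CPM to 10.4 to 27.9 CPM (1.89, edgeR adjusted p = 4.8e-04). Grb10, the paralogue of Grb14, named after its values were seen, went the other way. It rose from 34.3 to 59.9 CPM to 172.5 to 195.6 CPM (1.875, edgeR adjusted p = 5e-06). Of 17 PI3K, AKT and FoxO genes 4 were higher, 7 lower and 6 not called, with a median of 0.01, and 7 were called without control replicate 2 or without control replicate 3. Akt1 rose from 68.0 to 83.0 CPM to 140 to 162 CPM (1.01, edgeR adjusted p = 5.2e-06). Foxo4 fell from 198 to 257 CPM to 79.5 to 105 CPM (-1.34), and Foxo6 from 8.97 to 15.7 CPM to 3.34 to 6.32 CPM (-1.47).

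Genes of insulin-responsive glucose handling were lower in 6 of 9 cases and higher in 0, at a median log2 fold change of -0.71. With library totals alone the median was -0.038, beside 0.73 over all genes, and 4 genes were called. Pdk4, the kinase that shuts pyruvate dehydrogenase in fasting, went from 1569 to 2680 CPM to 88.1 to 534 CPM (-2.82, SE 0.50, edgeR adjusted p = 8.4e-04). Tbc1d1, a regulator of glucose transporter traffic, went from 46.8 to 113 CPM to 17.3 to 23.1 CPM (-1.64), with control replicate 4 well above the other controls. Ppp1r3c, which targets a phosphatase to glycogen, went from 442 to 837 CPM to 172 to 275 CPM (-1.61, edgeR adjusted p = 9.7e-05).

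The growth hormone axis, whose receptor signals through JAK2 and STAT5 to Igf1, had 5 of 8 genes lower, 1 higher and 2 not called, at a median log2 fold change of -1.21. Igf1 itself and Igfals are among the 5. Jak2 fell from 81.0 to 102 CPM to 24.6 to 30.7 CPM (-1.72, SE 0.09, edgeR adjusted p = 5.2e-07), and Stat5b from 269 to 308 CPM to 105 to 135 CPM (-1.25, edgeR adjusted p = 2.1e-06). Ghr, the receptor, was lower as well (-1.17) and Stat5a was higher (0.61), both named after their values were seen.

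Of 7 genes of mannose 6-phosphate sorting, the other task of IGF2R, 2 rose and 0 fell, at a median log2 fold change of 0.16. These were M6pr, the smaller receptor of the same sorting route (33.1 to 35.6 and 48.8 to 51.1 CPM, 0.53, edgeR adjusted p = 2.6e-05), and Gga2, an adaptor of its transport (29.2 to 33.1 and 41.9 to 53.6 CPM, 0.57, edgeR adjusted p = 3.4e-04). Of 15 genes of the imprinted gene network, which holds Igf2, H19 and Grb10, 5 were higher, 2 lower and 8 not called, with a median of 1.01. Besides Igf2 and H19 the largest change was that of Slc38a4, an amino acid transporter, which fell from 183 to 280 CPM to 30.6 to 51.8 CPM (-2.54, edgeR adjusted p = 2.2e-06). The calls in this list were 11 with DESeq2. The lists of other genes were described by their counts and medians, beside 44.7% of all genes called and the median of 0.07, with no test of a list.

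**Figure D5:**
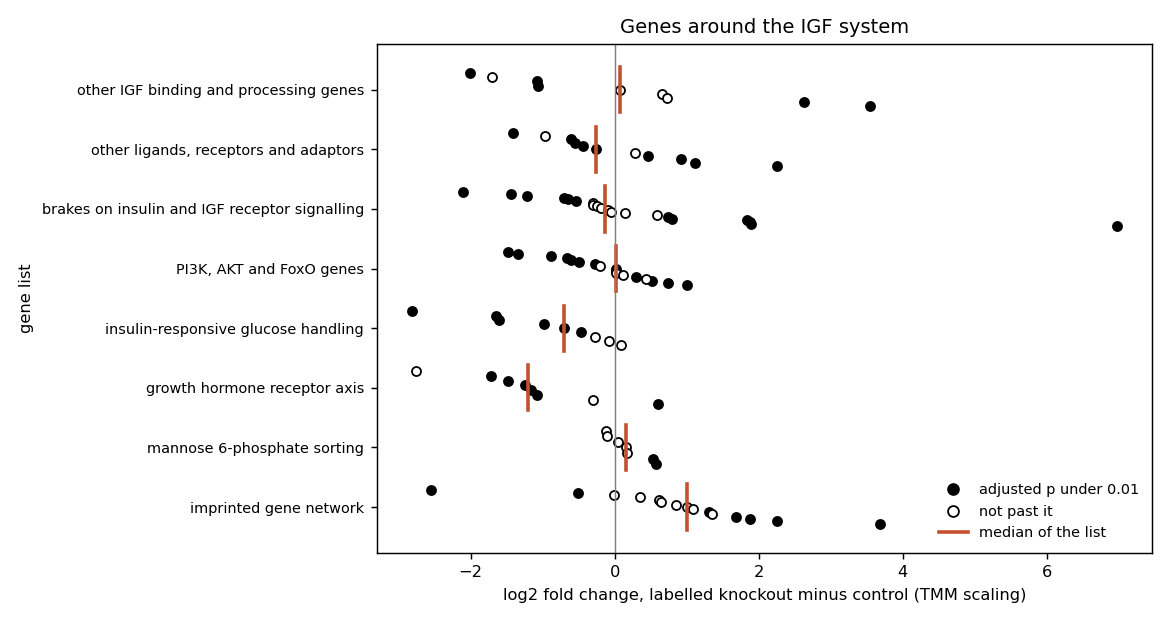
Log2 fold change (labelled knockout minus control, TMM scaling) of each measured gene in 8 lists around the IGF system, 1 point per gene, filled where the adjusted p by edgeR's test was under 0.01, with the median of each list as a bar. The growth hormone axis and glucose handling have medians of -1.21 and -0.71 and the imprinted network 1.01, and Trib3 is the point near 7. These medians lie higher with library totals alone, as does that of all genes (0.73).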

How the data were processed

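Polyadenylated RNA of 8 QF muscles was sequenced as read pairs from strand-specific libraries (NEBNext Ultra II Directional). The raw counts of each gene, as deposited, come from the authors, who trimmed the reads with cutadapt, mapped them to GRCm38 with STAR 2.5.4b and counted pairs on exons with Rsubread, without duplicate, chimeric, multimapping or poorly mapped reads (bcl2fastq 2.20.0.422 and DESeq2 1.32.0 are also named in the submitters' processing notes). Before deposit the authors dropped genes with few reads, and the lowest total in the table is 51. The annotation release and the use of strand are not given in the sources used here. The deposited exon widths are summed exon bases per gene, another unit than the counts. The authors' 8 FPKM columns and their DESeq2 columns (fold changes, their errors, p-values and mean signal) were not used.

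The counts of all 14012 genes were tested with edgeR 4.0.16 (glmQLFit and glmQLFTest, TMM factors, R 4.3.3) at a Benjamini-Hochberg adjusted p under 0.01, with the label as the only term. Ratios of members were compared by exact permutation. The test was checked on simulated data in which a small set of genes changed, as many up as down. That check does not cover the scaling between groups that differ as widely as these. The members and lists were chosen with earlier results of these data known. The genes named are the members, those of the first 2 other lists with a mean of at least 50 counts in the higher group, and for each further list up to 3 called genes with the largest change, the same minimum and no overlap. The labels give numbered mice, so that p-values measure the spread between these mice. Alternatives were RLE and upper-quartile factors, library totals alone, filterByExpr, DESeq2 1.42.0, a threshold of 0.05, a replicate block, an adipocyte covariate and each library left out. Promoter windows came from RefSeq (GRCm38.p6) and shared exons from GENCODE M21. Insr had no window.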

Additional observations from a re-analysis of the deposited data

Results flagged for a closer look

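In a group of 4, a library was picked out when its gap to the nearest other library exceeded the 95% limit of Dixon for the range of the group, which chance gives for about 5% of groups. Of 114 such groups of values looked at, 9 held a library of this kind, a share not far from that. Igf1 was picked out in both groups, with control replicate 1 at 53.9 CPM beside 34.4 to 36.3 CPM and knockout replicate 3 at 9.62 CPM beside 15.2 to 16.2 CPM. Tbc1d1 in control replicate 4 was at 113 CPM beside 46.8 to 49.3 CPM, Trib3 in control replicate 4 at 1.95 CPM beside 0.851 to 0.969 CPM, and Gab2 in control replicate 4 at 12.8 CPM beside 11.9 to 12.02 CPM. The summed fibroblast markers of the same library were at 3074 CPM beside 2290 to 2343 CPM. Sos2 in control replicate 2 was at 97.7 CPM beside 112 to 115 CPM, Akt1 in knockout replicate 4 at 162 CPM beside 140 to 143 CPM, and Airn in knockout replicate 2 at 5.40 CPM beside 3.84 to 4.09 CPM. No other member was picked out.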

How the results depend on the processing

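The calls of Igf1, Igf2, Igf1r, Irs1 and Igfbp5 kept their direction and their side of the threshold under every alternative run. With library totals alone 8498 genes were higher and 873 lower, Igfbp7 turned to 0.22, Irs2 (1.03) and Igfbp4 (0.74) were called, the mannose 6-phosphate list had 7 calls and the imprinted list 14, and Gab1 (0.054), Grb2 (0.42), Sos1 (0.23), Ptpn11 (0.11), Airn (0.46) and Polr2b (0.54) turned positive. With the adipocyte covariate Igfbp4 was at -0.10, Insr (0.34) and Igfbp7 (-0.47) were not called, and the PI3K list had 7 calls. The imprinted list had 11 calls with DESeq2 and 13 at a threshold of 0.05.

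With the replicate number as a block the imprinted list had 11 calls, and Insr (0.38) and Igfbp7 (-0.43) were not called. In a sign-flip test of the same pairs, which cannot go below 0.125, the ratios had log2 differences of 5.15 (Igf2 to Igf1), -0.79 (Insr to Igf1r), -0.80 (Igf2r to Igf1r), 1.60 (Irs2 to Irs1) and -1.13 (Igfbp5 to Igfbp7). The numbers are not shown to pair the mice. Deviations of same-numbered libraries correlated over genes by 0.118, 0.00314, 0.42 and 0.138. For control replicates 1, 3 and 4 the same-numbered knockout library gave the highest value. Control replicate 2 correlated more with knockout replicate 1 (0.0968).

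With each library left out, 5 to 7 members were called, 5 of them without knockout replicate 3, where Igf2r, Insr and Igfbp7 lost their calls; 2 to 4 were higher. The PI3K list had 7 to 10 calls. The log2 fold changes ranged from 0.31 to 0.40 for Igf2r, 0.30 to 0.42 for Insr, 0.21 to 0.50 for Irs2, -0.039 to 0.20 for Igfbp4 (-0.0089 without knockout replicate 2) and -0.53 to -0.37 for Igfbp7. The ratios ranged from 4.99 to 5.26 (Igf2 to Igf1), -0.88 to -0.68 (Insr to Igf1r), -0.93 to -0.72 (Igf2r to Igf1r), 1.44 to 1.82 (Irs2 to Irs1), 0.39 to 0.73 (Igfbp4 to Igfbp7) and -1.34 to -0.93 (Igfbp5 to Igfbp7). Of the 496 values of the 31 other named genes, 472 kept direction and side of the threshold. Causes of these shifts were not tested. Depth did not limit the members, all of which had at least 200 counts in each library.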
